A study of Homo sapiens with 6 samples.

Results

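The 10 keratins described here were selected on their level in TE1 cells. They are the keratin genes with the highest mean FPKM over 6 RNA-seq libraries, taken from 17 keratin genes that a table of 12180 protein-coding genes lists. FPKM is a read density scaled for transcript length and sequencing depth, so levels can be compared between genes. TE1 is a cell line from a human esophageal squamous cell carcinoma (ESCC). Of the 6 libraries, 3 came from cells that overexpressed FGL1, a secreted fibrinogen-like protein, from a lentiviral vector (FGL1-OE), and 3 from control cells (NC). The labels call the genotype of the controls WT, whereas the study describes controls that received random nonsense sequences. Neither source names the promoter of the vector, a clone or an exposure to radiation for these libraries, and nothing says that libraries of a group came from separate cultures, so p-values measure only the spread between these libraries. The comparison asks which keratin transcripts differed between TE1 cells with and without added FGL1.

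Keratins are the intermediate filament proteins of epithelia. A filament is built from heterodimers of an acidic type I keratin and a basic or neutral type II keratin, so that the genes are expressed in pairs. KRT8 and KRT18, with KRT7 and KRT19, are the simple epithelial set. KRT5 and KRT14 mark the basal layer of squamous epithelium, KRT4 and KRT13 the suprabasal layers of the esophagus, and KRT1 and KRT10 those of the epidermis. KRT6A, KRT6B, KRT6C, KRT16 and KRT17 are induced in wounded or hyperproliferative epithelium, and KRT81, KRT83 and KRT86 are type II keratins of the hair shaft.

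Several of these genes are close copies, which bears on the values of those genes below, since short reads from a shared stretch cannot be placed. KRT6A and KRT6C, both type II and close together on chromosome 12, differed at 35 of 1695 coding bases (97.9% identity), and the longest run without a difference was 349 bases. KRT6A and KRT6B differed at 43 of 1695 coding bases. KRT81 and KRT86 differed at 85 of 1457 aligned coding bases (94.2% identity), with a longest identical run of 605 bases. The activated type I pair KRT17 and KRT16 was farther apart, with 268 differences in 1298 aligned coding bases (79.4% identity) and no identical run over 61 bases. The sequences shown are, for the KRT6A/KRT6C pair, the window of 60 coding bases with the most differences inside an exon, and they show how few bases can separate the copies even there. They were read from GENCODE release 29 on GRCh38, 5′ to 3′ along the coding strand, and capitals mark the bases at which the pair differs. The KRT6A window lies at chr12:52492694-52492753 (minus strand, exon 1, coding bases 436 to 495) and that of KRT6C at chr12:52473243-52473302 (minus strand, exon 1, the same coding bases), with 5 differences.
KRT6A: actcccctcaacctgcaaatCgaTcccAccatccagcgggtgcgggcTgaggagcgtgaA
KRT6C: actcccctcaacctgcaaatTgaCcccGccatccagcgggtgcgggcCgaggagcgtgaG

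Over whole transcripts, the share of words of 31 bases that also occur in transcripts of another gene separated the 10 keratins. KRT80 (1.46%), KRT7 (4.87%), KRT10 (0.144%) and KRT19 (11.4%) had the lowest shares, given for the most abundant or the longest listed transcript. The share was 52.7% in KRT6A, with 45.7% in KRT6C and 40.5% in KRT6B, and 53.2% in KRT81, with 43.2% in KRT86. For KRT18 (60.4%) and KRT8 (62.0%) the shared words lay mostly in pseudogenes, and for KRT16 it was 39.5% and for KRT17 37.7%. Some of the loci also overlap another keratin on GRCh37, the build of the tables. KRT81, on the minus strand, lies wholly inside KRT86 on the plus strand (an overlap of 5622 bases), KRT18 and KRT8 overlap on opposite strands by 1084 bases, and KRT7 and KRT86 overlap on the plus strand by 2887 bases. The kit kept the strand of the RNA, but whether strand was used in quantification is not given in the sources used here. Levels of KRT6A, KRT81, KRT8, KRT18, KRT16 and KRT17 are therefore uncertain as to their split with these copies.

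The libraries differed before any comparison of groups. FGL1 had 0.0202, 0 and 0.106 FPKM in the NC libraries against 33.5, 39.3 and 39.9 FPKM with FGL1-OE, as the labels require. NC was the more variable group. Across genes, log2(FPKM + 1) correlated at 0.885 to 0.964 within NC and at 0.981 to 0.986 within FGL1-OE, and NC 2 stood farthest from NC 1. In each library, the deviation of a gene from its mean followed the GC content of its transcripts, with Spearman's rho across 11786 genes of 0.72, -0.77 and 0.45 for replicates 1, 2 and 3 of NC and of 0.28, -0.55 and -0.35 for those of FGL1-OE. Genes are not independent replicates, and these values describe the libraries only. Without read counts the depth is unknown. The summed FPKM of the listed genes was between 210904 and 226307 per library.

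Markers of the cells were checked in the same table. Of 8 markers of squamous epithelium, 5 were listed (KRT5, DSG3, TRIM29, S100A2 and TP63), and KRT14, PKP1 and SOX2 were not listed. TP63, the master regulator of squamous identity, was between 0.299 and 0.779 FPKM in the 6 libraries, and KRT5 was between 4.27 and 6.24 FPKM. DSG3, TRIM29 and S100A2 had means of 8.67, 6.77 and 10.1 FPKM over the 6 libraries. The summed level of the squamous markers was 31.8 to 32.9 FPKM in NC and 28.0 to 31.8 FPKM in FGL1-OE. Of 8 markers of glandular epithelium, only EPCAM was listed, at 90.5 to 122 FPKM. No marker of endothelium was listed among 3, and CD14 and CD68 were listed among 5 markers of leukocytes, with a sum of 3.11 to 6.06 FPKM in NC and 3.62 to 5.67 FPKM in FGL1-OE. TP63 and KRT5 were thus lower than the other listed squamous markers, and a gene that was not listed may still be expressed. The keratins are described by gene.

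The simple epithelial keratins and a hair keratin made up most of the keratin signal. KRT7, KRT8, KRT18 and KRT19 together held 66.5% to 71.5% of the summed keratin FPKM of each library, and 87.6% to 91.1% together with KRT81. All 10 keratins held 98.7% to 99.2%. The keratins summed to 1.52%, 0.719% and 1.17% of all listed FPKM in NC 1, 2 and 3 and to 1.199%, 1.02% and 1.06% with FGL1-OE. NC 2 had the lowest share and NC 1 the highest, and all FGL1-OE libraries lay between them. The group means were 1.14% in NC and 1.09% in FGL1-OE. In bulk RNA, fewer cells that express a keratin and less of its RNA per cell cannot be told apart.

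**Figure D1:**
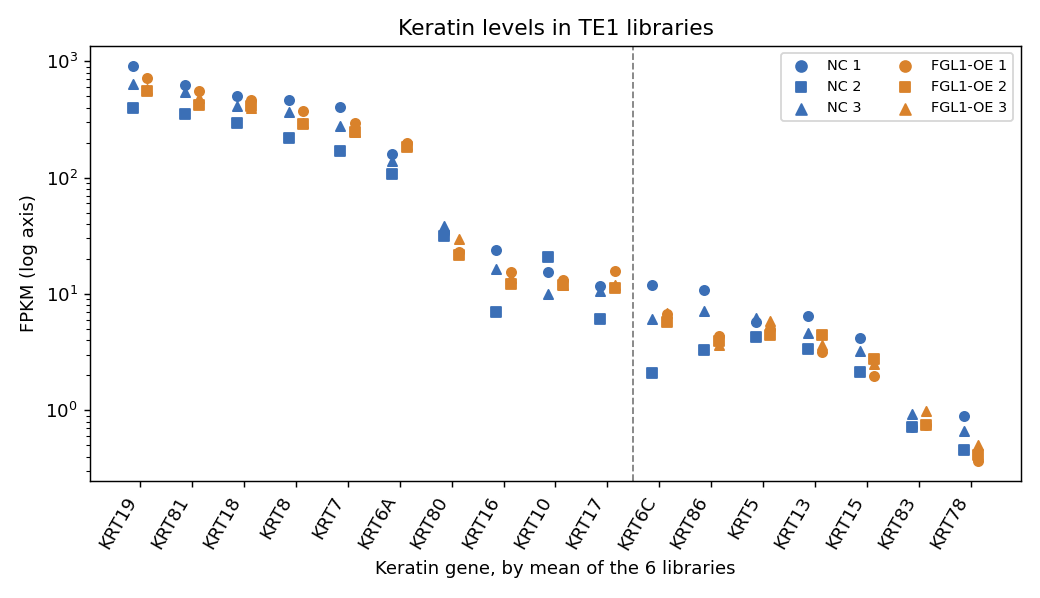
FPKM (log axis) of the 17 listed keratin genes in the 6 TE1 libraries, ordered by their mean, with NC in blue, FGL1-OE in orange, 1 symbol per replicate number, and a dashed line after the 10th gene. The first 6 genes, KRT19 to KRT6A, lie above 100 FPKM in all libraries, and for most of them NC 1 is the highest and NC 2 the lowest point.

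The order of the first 7 keratins was the same in all 6 libraries, from KRT19 through KRT81, KRT18, KRT8, KRT7 and KRT6A to KRT80. Since this order is the basis of the selection, it is given without a test. Over libraries, the ranges of neighbours overlapped at each step of the order except between KRT6A, which was 108 FPKM or higher in each library, and KRT80, which was 38.3 FPKM or lower. KRT16, KRT10 and KRT17, with means of 14.8, 13.9 and 11.2 FPKM, changed places between libraries. The last gene inside the limit was KRT17, and the first outside were KRT6C, with a mean of 6.58 FPKM, KRT86 with 5.504 FPKM and KRT5 with 5.25 FPKM. KRT13, KRT15, KRT83 and KRT78 followed at 4.28, 2.79, 0.807 and 0.548 FPKM. KRT14, the usual partner of KRT5, and KRT6B were not listed.

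The order depended on the table. When the FPKM of the listed transcripts of each gene was summed, KRT8 came first with a mean of 1264 FPKM, before KRT19 with 1012, KRT18 with 716, KRT7 with 580 and KRT81 with 498 FPKM, whereas in the gene table KRT8 was the fourth with 334 FPKM. The deposited gene value was therefore not the sum of the transcript values. KRT6A was the sixth in both tables, and KRT17 was the last of the 10 in both.

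No keratin among the 10 passed the adjusted threshold between FGL1-OE and NC, and the largest keratins hardly differed between the group means. KRT6A was higher in all FGL1-OE libraries and KRT80 lower in all of them, each without a call. In limma's fit of log2(FPKM + 1) over 12017 genes with Benjamini-Hochberg adjustment, 1 gene (0.00832%), FGL1 itself, had an adjusted p under 0.05, with a log2 fold change of 5.21 (SE 0.15, adjusted p = 1.29e-05). Before adjustment, 2 of the 10 keratins had a p under 0.05, against 2.01% of all genes. Of the 10, 1 had all FGL1-OE libraries above all NC libraries and 1 had all below. For all genes these shares were 4.09% and 3.06%, or 7.15% in either direction. The count of keratins with an unadjusted p under 0.05 was 0 without FGL1-OE 1 and 0 without FGL1-OE 2, 1 without NC 3 and 1 without FGL1-OE 3. The median log2 fold change of the 10 was -0.03, beside 0.02 for all genes tested, and 3 of the 10 were positive, beside 53.7% of all genes. That median was -0.30 without NC 2 and 0.26 without NC 1, so that its sign and size depended on the NC libraries included.

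The simple epithelial keratins come first. KRT19 (chr17:39679869-39684560), a type I keratin that lacks the usual tail domain, had 917, 400.5 and 640 FPKM in the NC libraries against 716, 554 and 577 FPKM with FGL1-OE. The 3 FGL1-OE values lay inside the NC range, whose ends were NC 1 and NC 2. The log2 fold change was -0.01 (SE 0.30, 95% interval -0.70 to 0.67). KRT7 (chr12:52626304-52645970), a type II keratin of simple and ductal epithelia, had 402, 171 and 279 FPKM in the NC libraries against 293, 245 and 249 FPKM with FGL1-OE. Again the NC range held all FGL1-OE values, and the log2 fold change was -0.03 (SE 0.30, 95% interval -0.72 to 0.66). The ratio of KRT7 to KRT19 was 0.438, 0.427 and 0.436 in NC and 0.409, 0.443 and 0.431 in FGL1-OE. These genes thus kept nearly the same proportion in libraries whose levels differed. The median GC content of their listed transcripts was also close, at 61.8% for KRT19 and 62.9% for KRT7. The part of GC content in the steady ratio was not tested.

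KRT18 and KRT8, which pair in simple epithelia, gave the same picture. KRT18 (chr12:53342655-53346685) had 505, 294 and 416 FPKM in the NC libraries against 462, 409.5 and 397 FPKM with FGL1-OE, with a log2 fold change of 0.09 (SE 0.22, 95% interval -0.41 to 0.60). KRT8 (chr12:53290971-53343738) had 465, 218 and 367 FPKM in the NC libraries against 370, 289 and 297 FPKM with FGL1-OE, with a log2 fold change of -0.07 (SE 0.28, 95% interval -0.73 to 0.58). For both genes NC 1 was the highest and NC 2 the lowest of the 6 libraries. Their ratio, KRT8 over KRT18, was 0.920, 0.741 and 0.882 in NC and 0.801, 0.707 and 0.747 in FGL1-OE, and the groups overlapped. From the transcript table the same ratio was 1.94, 1.53 and 2.30 in NC and 1.73, 1.43 and 1.59 in FGL1-OE, so that which partner was more abundant depended on the table.

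KRT81 (chr12:52679697-52685318), a hair shaft keratin that was the second by level in the gene table and the fifth by summed transcripts, had 628, 355 and 549 FPKM in the NC libraries against 553, 423 and 481 FPKM with FGL1-OE. Its groups overlapped, and the log2 fold change was -0.04 (SE 0.24, 95% interval -0.59 to 0.51). The near copy KRT86 had 10.8, 3.29 and 7.07 FPKM in the NC libraries against 4.34, 3.91 and 3.66 FPKM with FGL1-OE, with a log2 fold change of -0.58 (SE 0.34, unadjusted p = 0.13 from limma), and KRT83 was below 1 FPKM in each library. The hair keratins together made up 19.6% to 22.3% of the keratin FPKM in all libraries.

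Among the listed activated keratins, only KRT6A had groups that did not overlap in FPKM. KRT6A (chr12:52880958-52887041) had 160.3, 108 and 139 FPKM in the NC libraries against 197, 183 and 192 FPKM with FGL1-OE. The FGL1-OE libraries were all above the NC libraries, with means of 136 ± 26.2 and 191 ± 6.98 FPKM (SD, n = 3; exact permutation test, two-sided, p = 0.1, which is the smallest value 3 against 3 libraries can give). The log2 fold change was 0.50 (SE 0.18, 95% interval 0.09 to 0.92), with an unadjusted p of 0.024 and an adjusted p of 1.00 by limma with Benjamini-Hochberg adjustment. Without NC 2 it was 0.35 (adjusted p = 0.21), and over all alternatives it lay between 0.35 and 0.63 with adjusted p between 0.21 and 1.00. With the GC trend of each library removed, a step chosen after seeing the data, it was 0.52 (adjusted p = 0.48).

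The type I partners of KRT6A did not show the same separation. KRT16 (chr17:39766030-39772151), expressed with KRT6A in wounded epidermis, had 23.9, 6.98 and 16.4 FPKM in the NC libraries against 15.6, 12.1 and 13.8 FPKM with FGL1-OE. NC alone spanned the whole range, and the log2 fold change was -0.03 (SE 0.38, 95% interval -0.92 to 0.86). KRT17 (chr17:39775689-39781094), another type I keratin of activated epithelium, had 11.6, 6.13 and 10.5 FPKM in the NC libraries against 15.8, 11.2 and 11.9 FPKM with FGL1-OE. NC 1 lay above FGL1-OE 2, so the groups overlapped, with a log2 fold change of 0.45 (SE 0.25, 95% interval -0.14 to 1.03, unadjusted p = 0.11 from limma). That value was 0.19 without NC 2, 0.51 with the GC trend removed and 0.0014 from the sum of the transcript table. The ratio of KRT6A to KRT16 was 6.72, 15.5 and 8.51 in NC and 12.7, 15.1 and 13.9 in FGL1-OE, and NC 2 was the highest of the 6. The ratio of KRT6A to KRT17 was 13.8, 17.7 and 13.3 in NC and 12.5, 16.4 and 16.2 in FGL1-OE. In neither ratio were the groups apart.

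A share within the keratins does not change when a whole library is scaled, but the shares depend on each other, since they add up to the whole. The GC trend of a library also stays in them where GC contents differ, as between KRT6A (55.8%) and KRT19 (61.8%). Shares with that trend removed were not computed. KRT6A made up 5.01%, 6.65% and 5.59% of the keratin FPKM in NC and 7.36%, 8.40% and 8.40% in FGL1-OE (5.75 ± 0.83% and 8.05 ± 0.60%, SD, n = 3; exact two-sided permutation test, p = 0.1). KRT17 made up 0.364%, 0.376% and 0.421% in NC and 0.588%, 0.512% and 0.519% in FGL1-OE (exact two-sided permutation test, p = 0.1), which did not overlap either, unlike its FPKM. On this scale NC 2 was the NC library nearest to FGL1-OE for KRT6A, and not the one farthest from it as on the FPKM scale. The listed activated keratins KRT6A, KRT6C, KRT16 and KRT17 together held 6.49%, 7.59% and 6.91% in NC and 8.78%, 9.73% and 9.82% in FGL1-OE, of which KRT6A was the largest part. KRT6C had 11.9, 2.07 and 6.11 FPKM in the NC libraries against 6.77, 5.79 and 6.84 FPKM with FGL1-OE, so the groups overlapped.

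**Figure D2:**
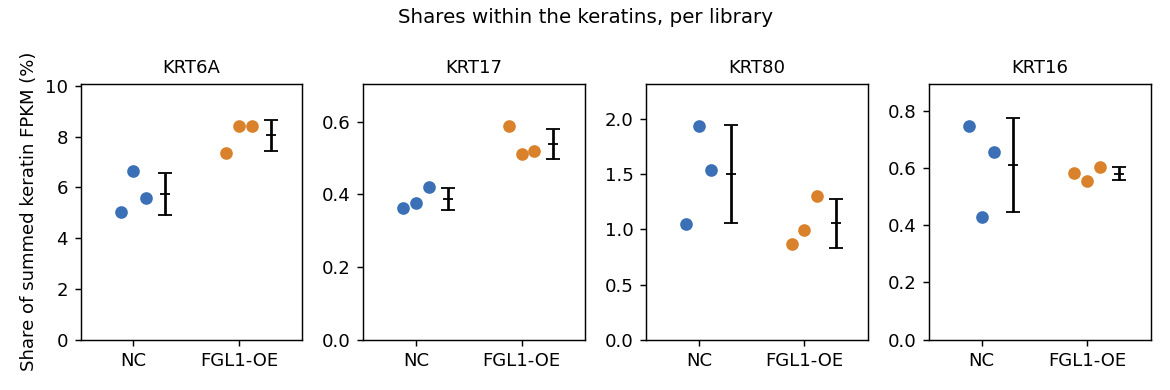
Share of the summed keratin FPKM (%, axes from 0) of KRT6A, KRT17, KRT80 and KRT16 in the 3 NC (blue) and 3 FGL1-OE (orange) libraries, with the group mean and SD as black bars. The groups are apart for KRT6A and KRT17 and overlap for KRT80 and KRT16.

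KRT80 (chr12:52562780-52585784), a type II keratin found near desmosomes, was the keratin with the opposite direction. It had 33.5, 31.5 and 38.3 FPKM in the NC libraries against 23.2, 21.8 and 29.8 FPKM with FGL1-OE. All FGL1-OE libraries lay below all NC libraries, with means of 34.5 ± 3.51 and 24.9 ± 4.28 FPKM (SD, n = 3; exact two-sided permutation test, p = 0.1). The log2 fold change was -0.46 (SE 0.17, 95% interval -0.87 to -0.06), with an unadjusted p of 0.030 and an adjusted p of 1.00 by limma with Benjamini-Hochberg adjustment. It was -0.52 without NC 2 (adjusted p = 0.20), -0.44 with the GC trend removed and -0.26 from the sum of the transcript table. In that sum FGL1-OE 3 lay above NC 1 and NC 2, so the groups overlapped. The adjusted p lay between 0.20 and 1.00 over all alternatives. As a share of the keratins, KRT80 made up 1.05%, 1.94% and 1.54% in NC and 0.864%, 0.996% and 1.30% in FGL1-OE, and here the groups overlapped through NC 1.

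KRT10 (chr17:38974369-38978847), a type I keratin of differentiating epidermis, was the member that moved against the others in NC. It had 15.6, 20.6 and 10.03 FPKM in the NC libraries against 13.1, 12.04 and 11.96 FPKM with FGL1-OE, so that NC 2 was its highest library. The log2 fold change was -0.24 (SE 0.25, 95% interval -0.82 to 0.33), and it was -0.02 without NC 2. Among the 7 listed keratins outside the 10, none had an unadjusted p under 0.05 and none had groups that did not overlap. As shares of the keratin FPKM, KRT86, KRT15 and KRT78 were lower in all FGL1-OE libraries (exact two-sided permutation test, p = 0.1 each), each at 0.336% or less in every library. In FPKM the groups of these genes overlapped, and KRT78 was at 0.887 FPKM or less. No count over all genes was made on the scale of shares. The sum of the type II over the sum of the type I keratins was 1.16, 1.22 and 1.27 in NC and 1.18, 1.17 and 1.24 in FGL1-OE, and from the transcripts 1.40, 1.40 and 1.62 in NC and 1.45, 1.33 and 1.42 in FGL1-OE.

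**Figure D3:**
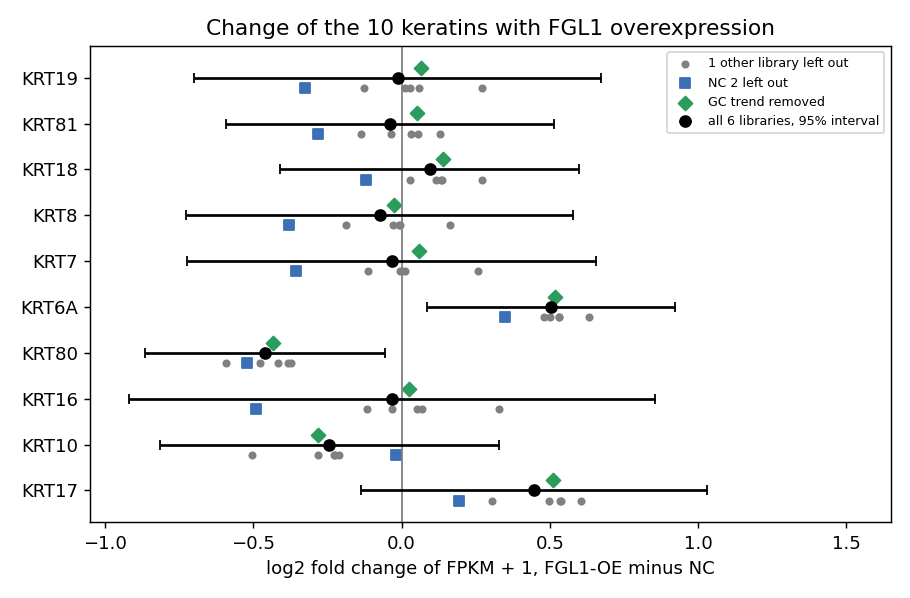
log2 fold change of FPKM + 1 (FGL1-OE minus NC) of the 10 keratins, with the 95% interval from 6 libraries in black, values without NC 2 as blue squares, without another library as grey points and with the GC trend removed as green diamonds. Only the intervals of KRT6A and KRT80 exclude 0, and in KRT19, KRT81, KRT18, KRT8, KRT7 and KRT16 leaving out a library moves the value across 0.

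The spread within NC set the precision for the abundant keratins. In KRT19, KRT81, KRT18, KRT8, KRT7 and KRT16, 6 of the 10, NC 1 was the highest and NC 2 the lowest of the 6 libraries, as was the case for 20.6% of all genes tested. The median difference between NC 1 and NC 2 was 0.82 on the log2 scale for the 10 keratins and -0.11 for all genes. The median SD within NC was 0.47 for the 10 keratins and 0.31 for all genes, and within FGL1-OE it was 0.18 and 0.12. Accordingly, the log2 fold change of KRT19 was -0.32 without NC 2 and 0.27 without NC 1, that of KRT7 was -0.36 and 0.26, and that of KRT16 was -0.49 and 0.33. For these genes the direction between the groups differed with the NC library left out.

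GC content moved with this spread. GC content is given per gene as the median of its listed transcripts. Among the 10 keratins it lay between 50.5%, in KRT10, and 62.9%, in KRT7, beside a median of 50.3% for all genes. After removal of the GC trend of each library, the median difference between NC 1 and NC 2 was 0.30 in place of 0.82, and the median SD within NC was 0.19 in place of 0.47, beside 0.18 for all genes. KRT81, with a GC content of 62.8%, went from a difference of 0.82 to 0.06, KRT7 from 1.23 to 0.46 and KRT19 from 1.19 to 0.50. KRT16 kept a difference of 1.09 of 1.64, and KRT10, whose GC content was that of the median gene, went from -0.38 to -0.28. With the trend removed the log2 fold changes of KRT19, KRT81, KRT7 and KRT16 were 0.07, 0.05, 0.06 and 0.03, and 3 of the 10 keratins had an unadjusted p under 0.05, again with none past the adjusted threshold.

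**Figure D4:**
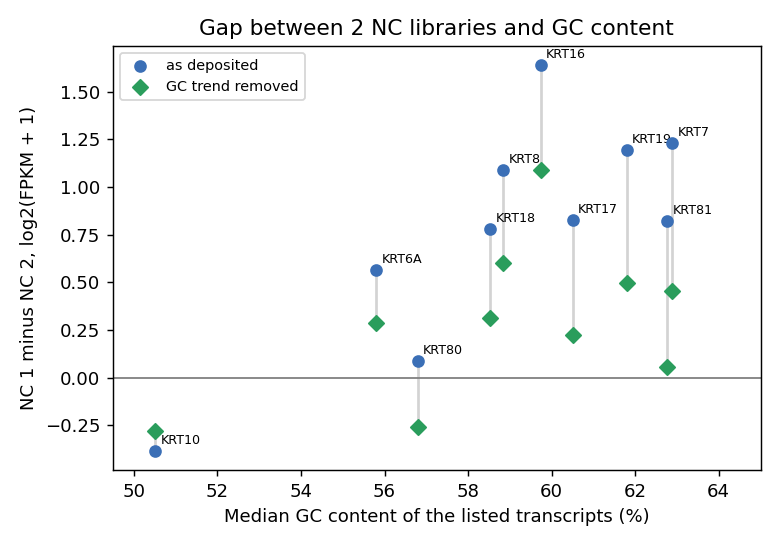
Difference between NC 1 and NC 2 in log2(FPKM + 1) against the median GC content (%) of the listed transcripts for the 10 keratins, as deposited (blue) and with the GC trend of each library removed (green), with grey lines joining the values of a gene. The median difference goes from 0.82 to 0.30, with KRT10 at the lowest GC content and below 0, and KRT16 with the largest remaining difference.

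The transcript table lists 26 transcripts of the 10 keratins, 8 of them of KRT8, 3 each of KRT19 and KRT18, and 1 each of KRT7 and KRT6A. All 26 were tested, 0 had an adjusted p under 0.05 by limma with Benjamini-Hochberg adjustment (0.0165% of 30330 transcripts did), and 1 had an unadjusted p under 0.05, against 3.53% of all transcripts. The groups did not overlap for 3 of the 26, against 8.22% of all transcripts. For KRT19, KRT81 and KRT7 a single transcript held almost all of the signal, and its pattern was that of the gene. ENST00000330722, the only listed transcript of KRT6A, had 203, 137 and 176 FPKM in the NC libraries against 249, 232 and 242 FPKM with FGL1-OE, with a log2 fold change of 0.50 (SE 0.25, unadjusted p = 0.085 from limma).

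In the other keratins with several listed transcripts the split between them varied from library to library. KRT18 had 3 listed transcripts. ENST00000388835 had 258, 428 and 384 FPKM in the NC libraries against 457, 267 and 311 FPKM with FGL1-OE. ENST00000550600 had 537, 97.3 and 259 FPKM in the NC libraries against 313, 154 and 114 FPKM with FGL1-OE. These were high in different libraries, the first in FGL1-OE 1 and NC 2 and the second in NC 1. ENST00000388837 had 111, 6.90 and 25.0 FPKM in the NC libraries against 3.34, 289 and 279 FPKM with FGL1-OE, so that FGL1-OE 1 was the lowest of all libraries while the other FGL1-OE libraries were the highest. Of the words of 31 bases in ENST00000550600 and ENST00000388837, 0% and 1.08% occur in no other transcript of the listed keratin genes. For ENST00000388835 that share was 10.7%. Isoforms that are not listed count among the other transcripts, and the listed transcripts were not compared with each other. KRT8 was led by ENST00000552150, at 1502, 527 and 940 FPKM in the NC libraries against 964, 730 and 812 FPKM with FGL1-OE. Its second transcript by mean, ENST00000293308, had 107, 150 and 120 FPKM in the NC libraries against 179, 173 and 143 FPKM with FGL1-OE, and the groups overlapped only through NC 2.

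KRT17 held the transcript with an unadjusted p under 0.05. ENST00000463128 had 0, 0.382 and 0 FPKM in the NC libraries against 0.819, 3.38 and 11.1 FPKM with FGL1-OE, with a log2 fold change of 2.04 (SE 0.68, unadjusted p = 0.022, adjusted p = 1.00 by limma with Benjamini-Hochberg adjustment; exact two-sided permutation test, p = 0.1). The other transcript, ENST00000311208, had 18.8, 9.96 and 15.5 FPKM in the NC libraries against 22.5, 2.00 and 11.8 FPKM with FGL1-OE. FGL1-OE 2 was the lowest library in ENST00000311208 and FGL1-OE 1 the highest, while ENST00000463128 was highest in FGL1-OE 3. Over all alternatives the log2 fold change of ENST00000463128 lay between 1.34 and 4.29, a size that rests on values near 0. The share of ENST00000463128 in the summed transcripts of KRT17 was 0%, 3.70% and 0% in NC and 3.51%, 62.9% and 48.6% in FGL1-OE. Every word of 31 bases of ENST00000311208 also occurs in another transcript of the listed keratin genes. For ENST00000463128, 14.7% of the words occur in no other transcript of these genes. The count of keratin transcripts with an unadjusted p under 0.05 was 0 without NC 3 and 0 without FGL1-OE 2, and 2 without FGL1-OE 1.

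KRT80, KRT16 and KRT10 had 2 listed transcripts each. For KRT80, ENST00000394815 had 15.2, 6.57 and 28.6 FPKM in the NC libraries against 12.9, 12.8 and 20.8 FPKM with FGL1-OE, with a log2 fold change of 0.07. ENST00000313234 had 9.40, 16.5 and 9.53 FPKM in the NC libraries against 8.81, 6.92 and 8.28 FPKM with FGL1-OE, with a log2 fold change of -0.47 (SE 0.30, unadjusted p = 0.16 from limma). The groups did not overlap for the second only, and the difference between the transcripts was not tested. Of the words of 31 bases in ENST00000394815 and ENST00000313234, 0% and 1.63% occur in no other transcript of the listed keratin genes. Isoforms that are not listed count among the other transcripts, and the 2 listed transcripts were not compared with each other. For KRT10, ENST00000635956 had 37.0, 21.4 and 2.03 FPKM in the NC libraries against 26.7, 4.59 and 2.13 FPKM with FGL1-OE, a range within each group that was wider than that of the gene. For KRT16, ENST00000301653 had 25.4, 6.64 and 10.6 FPKM in the NC libraries against 19.7, 8.10 and 17.2 FPKM with FGL1-OE, and its groups overlapped.

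**Figure D5:**
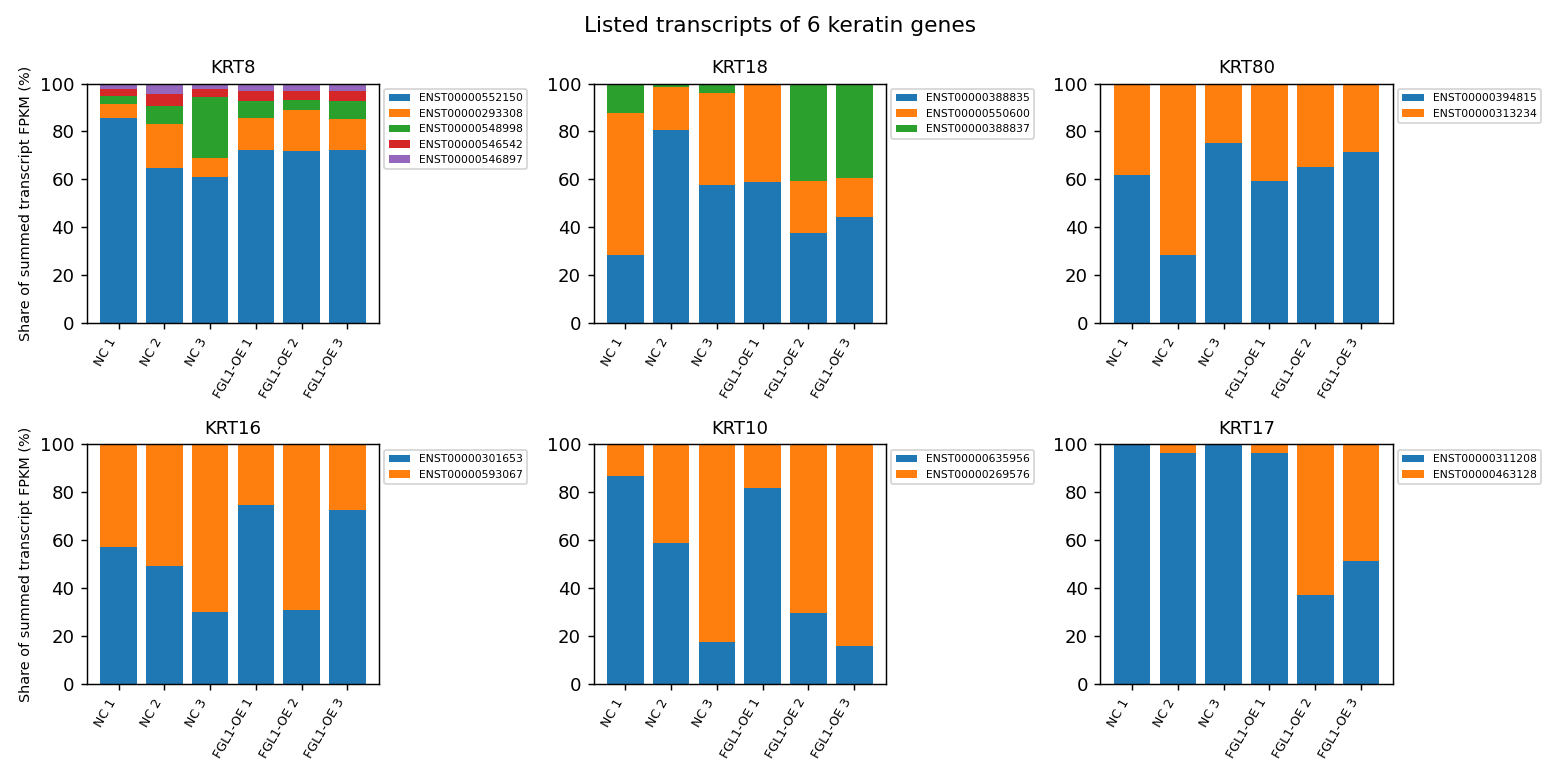
Share (%) of each listed transcript in the summed transcript FPKM of KRT8, KRT18, KRT80, KRT16, KRT10 and KRT17 in the 6 libraries, as stacked bars, with the 5 most abundant transcripts of KRT8 named. In KRT18, KRT16 and KRT10 the split differs between libraries of a group, and in KRT17 ENST00000463128 reaches 62.9% in FGL1-OE 2 and 48.6% in FGL1-OE 3 and is 3.70% or less in the other libraries.

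Genes that work with keratins were read from lists. Of 13 keratin linkers, the plakins and desmosomal proteins that tie keratin filaments to junctions or to other filaments, 12 were listed and tested, and 0 had an unadjusted p under 0.05 in either direction. Their median log2 fold change was -0.01, and the most abundant were JUP (plakoglobin, mean 67.8 FPKM) and PLEC (plectin, mean 49.9 FPKM). EVPL, the envoplakin gene, had the smallest p, with 15.5, 12.3 and 9.05 FPKM in the NC libraries against 7.87, 8.33 and 9.73 FPKM with FGL1-OE (log2 fold change -0.44, SE 0.21, unadjusted p = 0.070 from limma). Its groups overlapped through NC 3 and FGL1-OE 3. PLEC was lowest in NC 2, at 29.6 FPKM, and highest in NC 1, at 73.7 FPKM, as the simple keratins were.

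Of 26 gene symbols of squamous differentiation, 6 were listed and 5 tested, and 0 of these had an unadjusted p under 0.05. Involucrin (IVL), loricrin (entered under an old and a current symbol), filaggrin (FLG) and the SPRR genes of the cornified envelope were not listed. The most abundant were S100A9 (mean 19.0 FPKM), a calcium-binding protein of inflamed epithelium, and EMP1 (mean 9.92 FPKM), and CNFN (cornifelin) had the smallest p (log2 fold change -0.37, SE 0.22, unadjusted p = 0.13 from limma). Of 18 transcription and splicing regulators of squamous or epithelial identity, 15 were listed and 14 tested, and 0 had an unadjusted p under 0.05. KLF5 (mean 42.6 FPKM) and GRHL2 (mean 16.6 FPKM) led this list, and KLF5 also had the smallest p (log2 fold change 0.37, SE 0.27, unadjusted p = 0.21 from limma).

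Among 15 other intermediate filament genes, 9 were listed and tested, and 1, VIM, had an unadjusted p under 0.05, against 2.01% of all genes. VIM, which encodes the mesenchymal filament protein vimentin, had 14.4, 13.8 and 17.9 FPKM in the NC libraries against 21.5, 24.4 and 20.0 FPKM with FGL1-OE. All FGL1-OE libraries were above all NC libraries, with a log2 fold change of 0.49 (SE 0.16, unadjusted p = 0.018 from limma) that did not pass adjustment. LMNB1, a lamin of the nuclear envelope, was also higher in all FGL1-OE libraries (log2 fold change 0.23), and SYNM, the synemin gene, was lower in all of them (log2 fold change -0.33, unadjusted p = 0.070 from limma). LMNA and LMNB2 were the most abundant, with means of 67.1 and 66.0 FPKM. VIM is also 1 of 8 fibroblast markers, of which COL1A1, COL1A2 and LUM were listed besides it and COL3A1, DCN, PDGFRB and THY1 were not. Their summed level was 16.1 to 22.5 FPKM in NC and 23.3 to 32.7 FPKM in FGL1-OE, of which VIM was the largest part in each library. COL1A1 was between 1.42 and 5.55 FPKM and LUM between 0 and 2.33 FPKM. The part of other cells in the VIM and KRT6A levels was not tested.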

How the data were processed

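RNA of TE1 cells was enriched for mRNA with oligo(dT) beads, made into libraries with a stranded kit and sequenced by the authors. Per the submitters' processing notes, StringTie and GRCh37 were used; the aligner, tool versions and annotation are not given in the sources used here. The authors deposited FPKM values per library for 12180 genes and 33090 transcripts. The deposited tables also hold the authors' own comparison (group means, log2 fold changes, fold ratios, p-values and q-values), which was not used.

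The 12017 genes and 30330 transcripts whose mean FPKM over all 6 libraries reached 0.5 were compared between FGL1-OE and NC with limma 3.58.1 (R 4.3.3) on log2(FPKM + 1), a scale that understates changes of low features. Adjustment followed Benjamini and Hochberg (Benjamini-Hochberg), separately for genes and transcripts, at a threshold of 0.05. Exact two-sided permutation tests over the 6 libraries were run for single genes. The 10 keratins, the gene lists and the tests were chosen with earlier results of these data known, and no test of a list was run. All 10 keratins are named, with the next genes by level and near copies. Of each list, the 2 genes with the highest mean and up to 3 with the smallest p could be named. Of transcripts, up to 3 a gene were named, the most abundant and those with an unadjusted p under 0.05. Transcript sequence and GC content came from GENCODE release 29 (GRCh38) and covered 97.7% of genes. Python 3.11.15 was used for sequence comparison. The GC trend was a lowess curve (span 0.3) of each library's deviations, and this correction was added after seeing the data. The code was tested on simulated data. Alternatives were leaving out each library, a replicate block, transcript sums, quantile normalization, TPM scaling, other variance estimates, a pseudocount of 0.1, and a minimum mean of 1 FPKM or none.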

Additional observations from a re-analysis of the deposited data

How the results depend on the processing

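In each alternative run, 0 of the 10 keratins had an adjusted p under 0.05, and the directions of KRT6A, KRT80, KRT10 and KRT17 did not change. Deviations from the group means correlated at 0.35, 0.28 and -0.06 between NC and FGL1-OE libraries of the same number. Between libraries of different numbers they correlated at -0.37 to 0.14. These few values cannot decide whether the replicate numbers pair the libraries. With a replicate block, 3 keratins and 298 genes had an unadjusted p under 0.05, and 0 transcripts passed adjustment in place of 5. The small number of libraries and unknown depth limit the precision, and the cause of the shifts given here was not tested.

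Genes past the adjusted threshold numbered 2 in an ordinary linear model and 2 with the GC trend removed, and 1 to 7 when a library was left out, with 7 without NC 2. Genes with an unadjusted p under 0.05 numbered 374 and 702 in these fits and 137 to 2618 when a library was left out, with 2618 without NC 2. Genes whose groups do not overlap numbered 1569 with the GC trend removed and 1258 to 5148 with a library left out. Groups of 3 against 2 libraries separate more easily, so the latter counts are not comparable with the 859 genes from all libraries. For the 10 keratins, the count with an unadjusted p under 0.05 was 0 to 3 with a library left out. Transcripts past the adjusted threshold numbered 29 with a pseudocount of 0.1, 3 in an ordinary linear model and 1 to 28 with a library left out, and those with an unadjusted p under 0.05 numbered 874 to 2738. For transcripts of the 10 keratins, that count was 2 with a variance trend and robust moderation, 2 with the GC trend removed and 0 to 2 with a library left out. The keratin share was 1.33% in NC and 1.24% in FGL1-OE from transcript sums. Without the 10 genes of highest mean FPKM it was 1.26% in NC and 1.24% in FGL1-OE.

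Log2 fold changes that turned direction were those of KRT7 with quantile normalization (0.0220), and, with the GC trend removed, of KRT19 (0.0655), KRT81 (0.0503), KRT7 (0.0580), KRT16 (0.0253), ENST00000361566 of KRT19 (0.0137), ENST00000327741 of KRT81 (0.0211) and ENST00000331817 of KRT7 (0.0108). With a library left out, values ranged from -0.32 to 0.27 for KRT19, -0.28 to 0.13 for KRT81, -0.12 to 0.27 for KRT18, -0.38 to 0.16 for KRT8, -0.36 to 0.26 for KRT7 and -0.49 to 0.33 for KRT16. For transcripts they ranged from -0.37 to 0.24 for ENST00000361566, -0.28 to 0.13 for ENST00000327741, -0.27 to 0.11 for ENST00000388835 of KRT18, -0.52 to 0.24 for ENST00000552150 of KRT8, -0.37 to 0.22 for ENST00000331817, -0.44 to 0.54 for ENST00000394815 of KRT80, -0.22 to 0.68 for ENST00000301653 of KRT16 and -1.30 to 0.18 for ENST00000311208 of KRT17.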
